A study of Mus musculus with 9 samples.

Results

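The circadian clock genes described here are Bhlhe40, Bhlhe41, Per1, Per2, Cry1, Nr1d1, Nr1d2, Clock, Dbp and Nfil3, 10 of the 54532 genes in the deposited table, found by their gene names. The values are FPKM, in which read counts are divided by the length of the gene and by a divisor for each library. All 10 had a mean over 0.2 FPKM in the 9 libraries, and were among the 16123 genes tested. The study sequenced RNA of BV2 cells (mouse microglia immortalized in culture), with 3 libraries in each of 3 groups. The control group was kept in medium with 10% serum. The OGD group (oxygen–glucose deprivation) was kept in low-glucose medium with 4% serum in a chamber at 4% O2, so serum differed between the groups as well as oxygen and glucose. The OGD + A-485 group received in addition A-485, a catalytic inhibitor of the acetyltransferase P300 and of its paralog CBP. In the histone lactylation experiments, A-485 was present at 50 μM during OGD of 24 h, and neither value is restated for the sequenced cells. A group with A-485 and without OGD was not analysed here. Each group stands for a single time point, and the time of day of the harvest is not given in the sources used here. Nothing in the labels says that the libraries of a group came from separate cultures, so the p-values measure the spread between these libraries, which may be technical.

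The mammalian clock is a transcriptional feedback loop. CLOCK pairs with BMAL1 (gene Arntl) and binds E-boxes, the period and cryptochrome proteins made in response inhibit this pair, and BHLHE40 and BHLHE41 (also called DEC1 and DEC2) compete for the same E-boxes. A second loop sets the REV-ERB repressors (Nr1d1, Nr1d2) against the ROR activators at Arntl and other genes, and an output arm sets DBP against NFIL3 at D-boxes. Bhlhe40 and Bhlhe41 are in addition known hypoxia-induced genes, and Per1 is known to respond quickly to glucocorticoid and other signals. In a cell line without a synchronizing stimulus the clocks of single cells run out of phase. Here the medium was replaced at the start of OGD, with serum that differed between control and OGD. Whether this set the clocks was not tested. A single harvest reads levels and not a rhythm, so a difference in phase between groups cannot be told apart from one in level.

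The promoters are shown because the loop is written in them. RefSeq windows of 300 bases (250 before and 50 after a start site, GRCm38.p6) were found for 8 of the 10 genes, 11 windows in all. Bhlhe40 and Per2 had no window and were not searched, while Per1 had 2 windows and Clock 3. The E-box CACGTG was in 1 window each of Bhlhe41, Per1 and Cry1. That is 3 of the 11 windows, against 7.15% of all 32851 windows searched. The E′-box CACGTT, read on either strand, was in the windows of Cry1 and Nr1d1 and in 4.68% of all windows. For these 4 genes, bases of 1 window upstream of its RefSeq start are printed, 5′ to 3′ on the strand of the gene. Bases that an exon of the same gene in GENCODE M21 covers are left out. They lie at chr6:145865559-145865670 (Bhlhe41, 112 bases, minus strand), chr11:69098699-69098947 (Per1, 249 bases, plus strand), chr10:85185065-85185304 (Cry1, 240 bases, minus strand) and chr11:98775378-98775627 (Nr1d1, 250 bases, minus strand). Capitals mark every match, on either strand, to the E-box, the E′-box, the letters AGGTCA from the element of the REV-ERB and ROR receptors, and the hypoxia response core, searched as ACGTG and separately as GCGTG.
Bhlhe41: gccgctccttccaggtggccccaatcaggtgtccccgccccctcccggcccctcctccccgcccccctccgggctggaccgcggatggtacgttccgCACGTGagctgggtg
Per1: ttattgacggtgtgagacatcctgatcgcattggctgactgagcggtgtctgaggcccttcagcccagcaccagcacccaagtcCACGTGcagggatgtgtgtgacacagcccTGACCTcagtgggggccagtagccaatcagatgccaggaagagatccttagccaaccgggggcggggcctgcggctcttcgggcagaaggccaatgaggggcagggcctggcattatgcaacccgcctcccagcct
Cry1: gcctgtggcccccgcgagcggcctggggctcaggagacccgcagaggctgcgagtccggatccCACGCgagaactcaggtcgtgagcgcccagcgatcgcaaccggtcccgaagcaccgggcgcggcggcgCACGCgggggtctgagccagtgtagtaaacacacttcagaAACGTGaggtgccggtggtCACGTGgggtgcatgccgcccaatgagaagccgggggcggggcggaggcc
Nr1d1: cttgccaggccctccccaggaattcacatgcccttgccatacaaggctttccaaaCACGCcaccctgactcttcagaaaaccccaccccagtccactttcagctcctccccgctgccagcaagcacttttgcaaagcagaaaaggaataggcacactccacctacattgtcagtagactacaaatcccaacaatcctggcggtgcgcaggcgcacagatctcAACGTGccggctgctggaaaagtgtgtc
The ACGTG core lies inside every E-box and E′-box, so these matches are not separate. Positions count back from -1, the base before the RefSeq start site. The E-box lay at -153 to -148 in Bhlhe41, at -166 to -161 in Per1 and at -60 to -55 in Cry1, and the E′-box at -79 to -74 in Cry1 and at -28 to -23 in Nr1d1. The gene model of Bhlhe41 in the deposited table starts at base 145865558, upstream of the RefSeq start at base 145865420 and downstream of the E-box. That of Per1 starts at base 69095217, upstream of the whole printed stretch, which therefore lies inside the gene model and not before its first exon. AGGTCA was in windows of Per1, Nr1d2, Clock and Nfil3 (4 of 11, against 16.3% of all windows), ACGTG in 5 of 11 (19.6% of all) and GCGTG in 8 of 11 (32.4% of all). None of these windows held the D-box TTATGTAA (0.938% of all) or the cyclic AMP response element TGACGTCA (1.79% of all). These matches describe the letters of these windows only, and binding was not measured.

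The reads on genes, recovered from the FPKM as whole numbers, ran from 12593250 to 16091038 per library, and 1 read on a gene of 1 kb was worth between 0.0618 and 0.0786 FPKM. Of 12 microglial and macrophage markers, 11 had a mean of at least 1 FPKM, and P2ry12 had a mean under 0.2 FPKM. Defining markers of other brain cells (Aqp4, Mog, Olig2, Cldn5) were at 0. In the OGD libraries, 10 of 10 listed hypoxia genes were called higher than in the control, against 11.2% of all genes tested. This list, the other lists and the 10 clock genes were chosen with earlier results of these data known. Their counts beside the share of all genes are therefore descriptions and not independent checks. Here and throughout, a gene was called where its limma p-value was under 0.01 and its log2 fold change was larger than 0.5 in either direction, the thresholds of the study. Log2 fold changes are of FPKM + 0.1 and understate the change of low genes, and fold values are ratios of group means of FPKM.

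Compared to the control group, 6 of the 10 clock genes were called in OGD, against 21% of all genes tested. Bhlhe40, Bhlhe41, Per1 and Nfil3 rose (11.2% of all genes were called higher), and Cry1 and Nr1d2 fell (9.81% were called lower). The libraries of both groups did not overlap for 8 of the 10, against 55.4% of all genes. The median log2 fold change of the 10 was 0.29, against 0.01 over all genes. In bulk RNA, fewer cells expressing a gene and less RNA per cell cannot be told apart. Compared to OGD alone, 3 of the 10 were called in OGD + A-485, against 25.7% of all genes. Per2 rose (12.2% of all genes were called higher), and Per1 and Nfil3 fell (13.4% were called lower). Both groups did not overlap for 7 of the 10, against 56.8% of all genes, and the median was -0.12 against 0.01. Both comparisons use the same OGD libraries, so a gene high in OGD by chance would appear raised in one and lowered in the other. OGD + A-485 against control, which shares its libraries with both, had 7 of the 10 called, 4 higher and 3 lower, against 33.7% of all genes (17% higher, 16.6% lower), and 9 of 10 without overlap, against 63.8%.

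**Figure D1:**
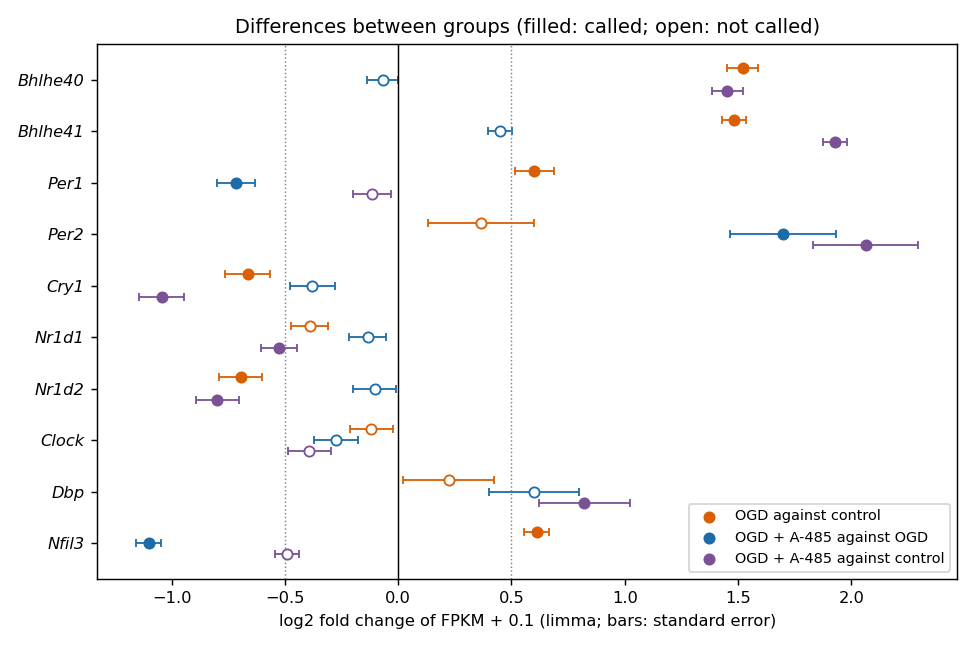
Log2 fold change of FPKM + 0.1 for each of the 10 genes (horizontal axis) in OGD against control (orange), OGD + A-485 against OGD (blue) and OGD + A-485 against control (purple), with limma standard errors as bars and dotted lines at the size threshold of 0.5 in each direction. Bhlhe40 and Bhlhe41 lie near 1.5 in OGD against control, Per2 is the rightmost gene in both comparisons of OGD + A-485, and Nfil3 lies at 0.61 in OGD against control and at -1.10 in OGD + A-485 against OGD.

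Bhlhe40 and Bhlhe41 encode the E-box repressors of the DEC family and had the largest differences among the 10 genes between OGD and control. Bhlhe40 (ENSMUSG00000030103, chr6:108660629-108666925, plus strand) had 8.70, 8.43 and 9.82 FPKM in the control libraries, 24.1, 26.8 and 26.9 under OGD, and 25.8, 23.7 and 24.6 under OGD + A-485. Every library under OGD, with or without A-485, lay above every control library, and the OGD and OGD + A-485 libraries overlapped. The mean rose from 8.98 ± 0.736 to 25.9 ± 1.55 FPKM (SD, n = 3), or 2.89-fold (log2 fold change 1.52, SE 0.07, limma adjusted p = 1.06e-06). It was 24.7 ± 1.05 FPKM in OGD + A-485, a log2 difference of -0.07 from OGD (SE 0.07, limma adjusted p = 0.449). Between 547 and 1780 reads per library stood behind these values.

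Bhlhe41 (ENSMUSG00000030256, chr6:145858243-145865558, minus strand) had 4.13, 3.98 and 3.96 FPKM in the control libraries, 11.1, 11.6 and 11.5 under OGD, and 15.7, 14.7 and 16.5 under OGD + A-485. The groups were stepwise and without overlap, unlike those of Bhlhe40. The mean rose 2.83-fold, from 4.02 ± 0.0944 to 11.4 ± 0.228 FPKM, in OGD (log2 fold change 1.48, SE 0.05, limma adjusted p = 3.43e-07). OGD + A-485, at 15.6 ± 0.924 FPKM, differed from OGD by 0.45 on the log2 scale (SE 0.05, limma adjusted p = 0.000122), which is under the size threshold and was not called. Against control it was 3.88-fold higher (1.93, limma adjusted p = 2.29e-08). In the order of all 16123 genes by log2 fold change in OGD against control, Bhlhe40 was the 482nd highest and Bhlhe41 the 520th highest. Gm43909, a gene model on the opposite strand, shares 1280 exon bases with Bhlhe41 (19.0% of its exons) and had 0.212 FPKM in control, 0.970 under OGD and 0.625 with A-485 added. The sources used here do not say whether counting used strand, so reads of the 2 genes cannot be told apart over those bases.

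**Figure D2:**
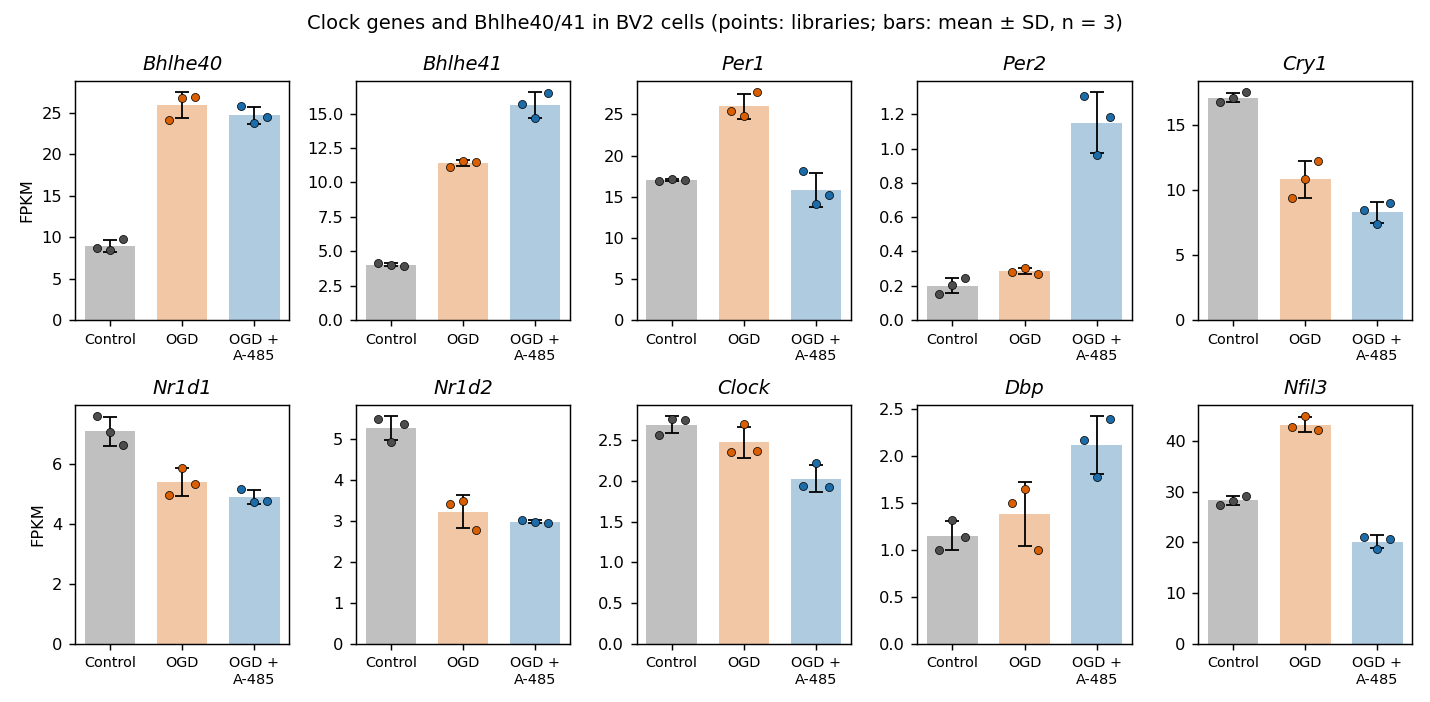
FPKM (vertical axis, from 0) of each of the 10 genes in the 3 groups, named under each bar, with bars for the mean, error bars for the SD (n = 3) and points for single libraries. Bhlhe40 has a low control group and overlapping OGD and OGD + A-485 groups, Bhlhe41 steps up and Cry1 steps down from group to group without overlap, Per1 and Nfil3 are highest in OGD, and Per2 is high only in OGD + A-485.

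The genes whose pattern over the 9 libraries lay closest to these, among 11897 genes averaging at least 1 FPKM, were found by the root mean square difference of their centred log2 values. For Bhlhe40 they were Nat6, an acetyltransferase (0.0728; 7.23 FPKM in control, 19.4 under OGD and 20.3 with A-485 added), Appl2, an endosomal adaptor (0.0779), and Rras, a small GTPase (0.116). For Bhlhe41 they were Vim, the intermediate filament vimentin (0.0562, with 209.8, 624.6 and 870.4 FPKM), Gbe1, the glycogen branching enzyme (0.0798), and Aatk, a kinase (0.0920). All 6 genes had their lowest mean in the control group, which follows from their choice by likeness to Bhlhe40 or Bhlhe41. Id2, a helix-loop-helix inhibitor that lacks a DNA-binding region and is listed here among the clock output genes, moved in the same comparison as Bhlhe40. It had 6.74 ± 0.632 FPKM in control, 25.5 ± 3.67 under OGD and 25.1 ± 2.10 under OGD + A-485 (log2 fold change 1.90 in OGD against control, limma adjusted p = 3.7e-06).

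The period genes differed from each other. Per1 encodes a repressor of the CLOCK and BMAL1 pair (ENSMUSG00000020893, chr11:69095217-69109960, plus strand). Its levels were 16.9, 17.2 and 17.1 FPKM in control, 25.4, 24.8 and 27.7 under OGD, and 18.1, 14.1 and 15.3 under OGD + A-485. The OGD libraries stood above all others, and the control libraries lay within the range of the OGD + A-485 libraries. Per1 rose 1.52-fold in OGD (0.60, SE 0.08, limma adjusted p = 0.000437) and fell 1.64-fold from OGD to OGD + A-485 (-0.72, SE 0.08, limma adjusted p = 0.000124). OGD + A-485 against control gave -0.12 (limma adjusted p = 0.283).

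Per2, a paralog of Per1 with the same role (ENSMUSG00000055866, chr1:91415982-91459324, minus strand), had few reads without A-485. It had 0.153, 0.204 and 0.243 FPKM in control (12 to 23 reads), 0.282, 0.302 and 0.267 in OGD (21 to 23 reads), and 1.31, 0.962 and 1.18 in OGD + A-485 (89 to 112 reads). Every OGD + A-485 library lay above every other library, by more than the whole range of the rest. Per2 rose 4.06-fold from OGD to OGD + A-485 (log2 fold change 1.70, SE 0.23, limma adjusted p = 0.000306), the 527th highest of the 16123 genes. At these low values the log2 fold change depended on the pseudocount, from 0.74 with 1 FPKM to 1.98 with 0.01 FPKM, and the gene was called in each case. OGD against control gave 0.36 (SE 0.23, limma adjusted p = 0.241). Within each library, the ratio of Per1 to Per2 was 70.4 to 110.5 in control, 82.3 to 103.6 under OGD and 12.9 to 14.7 under OGD + A-485.

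Per3, the period gene that is not among the 10, differed in the other direction from Per2 in OGD + A-485 against OGD. It had 1.99, 1.86 and 1.68 FPKM in control, 1.89, 1.97 and 1.83 under OGD, and 0.613, 0.534 and 0.664 under OGD + A-485. Its OGD + A-485 libraries were all below the others, with a fall of 3.15-fold from OGD (-1.51, SE 0.13, limma adjusted p = 1.54e-05). The 50 genes nearest to Per3 on its chromosome had a median log2 fold change of -0.49 in that comparison, and -1.02 remained with this median subtracted.

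Cry1, a cryptochrome that acts with the period proteins (ENSMUSG00000020038, chr10:85131700-85185064, minus strand), was lower under OGD and lowest with A-485. It had 16.8, 17.1 and 17.5 FPKM in control, 9.43, 10.8 and 12.2 under OGD, and 8.48, 7.39 and 8.99 under OGD + A-485. No groups overlapped, although the gap between the OGD and OGD + A-485 groups was narrower than the spread within OGD. Cry1 fell 1.58-fold in OGD (-0.66, SE 0.10, limma adjusted p = 0.000614) and was 2.07-fold lower in OGD + A-485 than in control (-1.04, limma adjusted p = 2.26e-05). The step from OGD to OGD + A-485 was -0.38 (limma adjusted p = 0.0115), under the size threshold. Its paralog Cry2, named here after its values were seen, differed the other way in OGD against control (0.42, limma adjusted p = 0.00203). Cry2 was lower with A-485 than in OGD (-0.34, limma adjusted p = 0.00549), and neither difference passed the size threshold. Ciart, a small repressor of the same loop, rose from 4.69 ± 0.296 to 8.52 ± 0.655 FPKM in OGD (0.85, limma adjusted p = 0.000104) and fell to 5.41 ± 0.585 FPKM with A-485 (-0.65, limma adjusted p = 0.000408). Like Per1, it was highest in OGD.

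Nr1d1 and Nr1d2 encode REV-ERBα and REV-ERBβ, heme-binding nuclear receptors that repress Arntl. Nr1d2 (ENSMUSG00000021775, chr14:18204054-18239127, minus strand) had 5.49, 4.93 and 5.37 FPKM in control, 3.41, 3.49 and 2.77 under OGD, and 3.02, 2.98 and 2.94 under OGD + A-485. All control libraries were above all others, and the OGD + A-485 libraries lay inside the OGD range. It fell 1.63-fold in OGD (-0.69, SE 0.10, limma adjusted p = 0.000375), and OGD + A-485 differed from OGD by -0.10 (SE 0.10, limma adjusted p = 0.408). Nr1d1 (ENSMUSG00000020889, chr11:98767932-98775333, minus strand) had 7.61, 7.07 and 6.64 FPKM in control, 4.98, 5.89 and 5.34 under OGD, and 5.18, 4.75 and 4.78 under OGD + A-485. The control libraries again lay above the rest. The difference in OGD was -0.39 (SE 0.08, limma adjusted p = 0.0037), under the size threshold, while the difference of OGD + A-485 from control, -0.53 (SE 0.08, limma adjusted p = 0.000453), just passed it. The size threshold separated the calls of both comparisons, and the difference between OGD + A-485 and OGD itself was -0.13 (SE 0.08, limma adjusted p = 0.201). Thra, on the opposite strand, shares 263 exon bases with Nr1d1 (8.55% of its exons) and had 6.72 FPKM in control, 8.45 under OGD and 7.13 with A-485 added.

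Rora encodes a ROR receptor, an activator at the elements that REV-ERB proteins repress. Its libraries had 1.30, 1.22 and 1.21 FPKM in control, 3.16, 3.94 and 3.04 under OGD, and 2.93, 3.13 and 2.97 under OGD + A-485. All libraries under OGD, with or without A-485, lay above the control libraries. Rora rose from 1.25 ± 0.0469 to 3.38 ± 0.488 FPKM in OGD (1.36, limma adjusted p = 1.76e-05) and was at 3.01 ± 0.107 in OGD + A-485. The step from OGD to OGD + A-485 was -0.15 (limma adjusted p = 0.282). The 50 genes nearest to Rora had a median of -0.50 in that comparison, and 0.34 remained with this median subtracted.

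Clock, the DNA-binding activator itself (ENSMUSG00000029238, chr5:76209868-76304792, minus strand), varied least among the 10 in OGD against control. It had 2.57, 2.76 and 2.74 FPKM in control, 2.36, 2.70 and 2.37 under OGD, and 1.94, 2.22 and 1.93 under OGD + A-485. Control and OGD overlapped, and the OGD + A-485 libraries were below both. The log2 differences were -0.12 (limma adjusted p = 0.36) in OGD against control, -0.27 (limma adjusted p = 0.0403) in OGD + A-485 against OGD and -0.39 (limma adjusted p = 0.00682) in OGD + A-485 against control, and none was called. Its partner Arntl had 3.33 ± 0.283, 3.27 ± 0.155 and 2.09 ± 0.0447 FPKM in the 3 groups and fell from OGD to OGD + A-485 (-0.62, SE 0.09, limma adjusted p = 0.000306). Arntl2, a lower paralog named here after its values were seen, had 0.532 ± 0.0592, 0.353 ± 0.0331 and 0.0552 ± 0.00927 FPKM and fell in the same comparison (-1.55, SE 0.27, limma adjusted p = 0.00131).

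In the output arm, the libraries with A-485 had the lowest Nfil3 and the highest Dbp. Nfil3 (E4BP4), the repressor (ENSMUSG00000056749, chr13:52967209-52981073, minus strand), was the most abundant of the 10 genes in the control and OGD groups. Its levels were 27.5, 28.2 and 29.2 FPKM in control, 42.7, 44.9 and 42.1 under OGD, and 21.0, 18.6 and 20.7 under OGD + A-485. The OGD libraries were the highest, the OGD + A-485 libraries the lowest, and no groups overlapped. Nfil3 rose 1.53-fold in OGD (0.61, SE 0.05, limma adjusted p = 2.91e-05) and fell 2.15-fold from OGD to OGD + A-485 (-1.10, SE 0.05, limma adjusted p = 7.41e-07), the 1163rd lowest of the 16123 genes. The 50 genes nearest to it had a median of -0.28 in that comparison, and -0.82 remained with this median subtracted. Their part in the result was not tested. Against control, OGD + A-485 differed by -0.49 (limma adjusted p = 5.56e-05), just under the size threshold, and by -0.17 with the neighbours' median of -0.32 subtracted.

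Dbp, the D-box activator (ENSMUSG00000059824, chr7:45705088-45710203, plus strand), had 1.0004, 1.31 and 1.13 FPKM in control, 1.496, 1.64 and 0.998 under OGD, and 2.17, 1.78 and 2.39 under OGD + A-485, from 40 to 103 reads per library. Control and OGD overlapped, and the OGD + A-485 libraries lay above both. Dbp was 1.84-fold higher in OGD + A-485 than in control (0.82, SE 0.20, limma adjusted p = 0.00678) and was called. The step from OGD, 0.60 (SE 0.20, limma adjusted p = 0.0342), did not pass the p threshold, nor did OGD against control (0.22, limma adjusted p = 0.409). The call against control was lost without control replicate 1 (0.73) and without OGD + A-485 replicate 1 (0.80) or 3 (0.73), and the step from OGD was called without OGD replicate 2 (0.73). Sphk2, on the opposite strand, shares 539 exon bases with Dbp (18.01% of its exons) and had 7.17 FPKM in control, 7.23 under OGD and 10.8 with A-485 added, and its part in the counts of Dbp was not tested. Tef, the related activator at the same elements, is one of 6 related clock genes called higher in OGD + A-485 against OGD and is named here after its values were seen (0.70 on the log2 scale).

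FPKM is scaled to length, so the levels of these genes can be ordered within a group. In the control the order of mean FPKM was Nfil3 28.3, Per1 and Cry1 both 17.1, Bhlhe40 8.98, Nr1d1 7.11, Nr1d2 5.26, Bhlhe41 4.02, Clock 2.69, Dbp 1.15 and Per2 0.1999. Only the libraries of Per1 and Cry1 overlapped among neighbours in this order. In OGD, Nfil3 still led at 43.2 FPKM, and Per1 (26.0) and Bhlhe40 (25.9) followed with overlapping libraries, while Bhlhe41 (11.4) had reached the level of Cry1 (10.8). In OGD + A-485, Bhlhe40 led at 24.7 FPKM, ahead of Nfil3 at 20.1, and Per1 (15.8) and Bhlhe41 (15.6) overlapped. Clock (2.03) and Dbp (2.11) overlapped there too, and Per2 remained last at 1.15 FPKM.

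Ratios within a library, in which any scaling of the library cancels, were compared for 5 pairs of related genes in 15 comparisons by a two-sided exact permutation test. With 3 libraries against 3 the smallest p it can give is 0.1, and the smallest after Benjamini-Hochberg adjustment here was 0.15, so no pair could pass 0.05. Of the 15 comparisons, 10 had no overlap between the groups. Bhlhe40 to Bhlhe41 was 2.11, 2.12 and 2.48 in control, 2.17, 2.32 and 2.34 under OGD, and 1.65, 1.62 and 1.49 under OGD + A-485. The ratio overlapped between control and OGD (log2 difference 0.03, exact permutation p = 0.8) and was lower in every OGD + A-485 library (-0.52 from OGD, exact permutation p = 0.1). The ratio of Dbp to Nfil3 lay between 0.0364 and 0.0466 in control, 0.0237 and 0.0366 under OGD, and 0.0956 and 0.115 under OGD + A-485, higher by 1.74 on the log2 scale than in OGD (exact permutation p = 0.1). Per1 to Per2 was lower by a log2 difference of -2.73 in OGD + A-485 than in OGD (exact permutation p = 0.1). Nr1d1 to Nr1d2 was 1.24 to 1.43 in control, 1.46 to 1.92 under OGD and 1.59 to 1.71 under OGD + A-485, with the control below the others. Arntl to Clock was 1.10 to 1.32, 1.22 to 1.44 and 0.964 to 1.07 in the same order of groups, lowest in OGD + A-485.

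**Figure D3:**
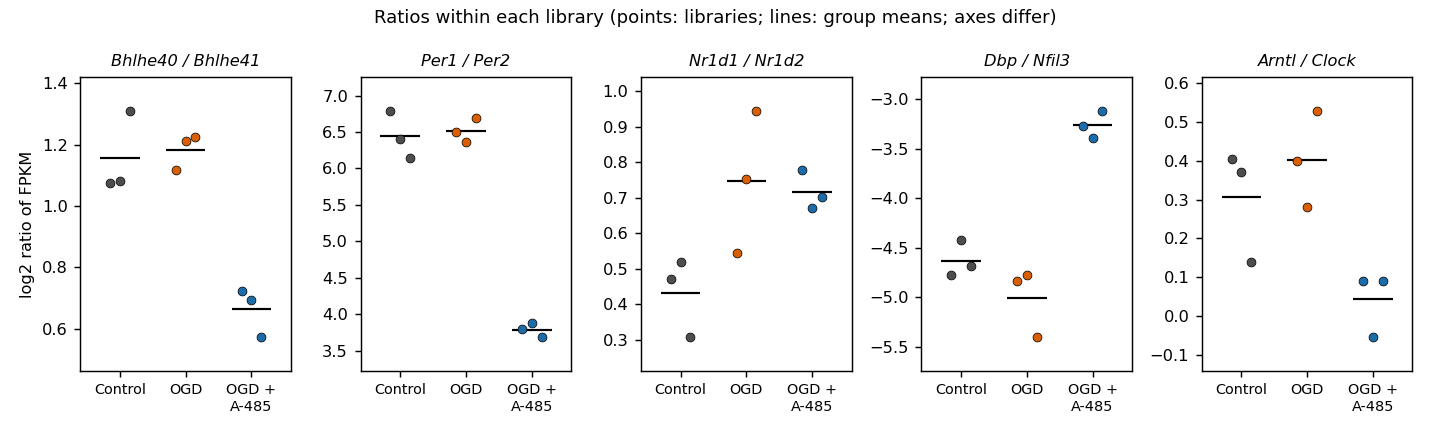
Log2 ratio of FPKM of 2 genes within each library (vertical axes, which differ between panels and do not start at 0) for 5 pairs in the 3 groups, with points for libraries and lines for group means. The OGD + A-485 libraries lie below all others for Bhlhe40 to Bhlhe41, Per1 to Per2 and Arntl to Clock and above all others for Dbp to Nfil3, while for Nr1d1 to Nr1d2 the control libraries lie below the rest.

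Of 45 other genes of the clock, 41 were tested. In OGD against control, 12 of the 41 were called (21% of all genes were), 5 higher and 7 lower (median log2 fold change -0.10). In OGD + A-485 against OGD, 17 were called (25.7% of all genes were), 6 higher and 11 lower (median 0.10), and against control 21 (33.7% of all genes were), 8 higher and 13 lower (median -0.03). The others named follow by role. Usp2, a ubiquitin protease that acts on clock proteins, fell at both steps, from 3.23 ± 0.157 to 1.74 ± 0.0991 and 1.08 ± 0.144 FPKM (-0.85, limma adjusted p = 0.000343, and -0.65, limma adjusted p = 0.0015). Btrc, a ubiquitin ligase subunit which targets the period proteins, rose in OGD from 1.73 ± 0.119 to 2.59 ± 0.135 FPKM (0.55) and fell with A-485 to 1.46 ± 0.107 FPKM (-0.79). The neighbours of Btrc had a median of -0.36 in OGD + A-485 against OGD, with -0.43 left after subtraction.

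The 8 kinase and phosphatase genes differed by between -0.31 and 0.19 on the log2 scale in OGD against control. In OGD + A-485 against OGD, Csnk1e, a casein kinase that phosphorylates the period proteins, fell from 19.2 ± 0.725 to 10.9 ± 0.474 FPKM (-0.81, limma adjusted p = 1.42e-06). Csnk2a1, named after its values were seen, also fell (-0.59). The neighbours of Csnk2a1 had a median of -0.21, with -0.38 left after subtraction, under the size threshold. Sfpq, a partner of the period proteins, fell in OGD from 67.9 ± 2.42 to 29.7 ± 1.70 FPKM (-1.19) and rose with A-485 to 47.6 ± 1.82 FPKM (0.68). Tipin, the partner of Timeless at the replication fork, fell at both steps (-0.59 and -0.77), with neighbours at a median of -0.42 in the second and -0.35 left after subtraction. Of the 6 output genes, Wee1, a cell cycle kinase, fell in OGD (9.76 ± 0.571 to 4.83 ± 0.0380 FPKM, 2.02-fold, limma adjusted p = 1.05e-05). Klf10 had 3.996 ± 0.192 and 3.87 ± 0.133 FPKM without A-485 and rose to 11.04 ± 0.243 FPKM with it (1.49, limma adjusted p = 2.09e-07). Por, the cytochrome P450 reductase, rose in OGD (0.55), and Tspan4 rose from OGD to OGD + A-485 (0.88).

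**Figure D4:**
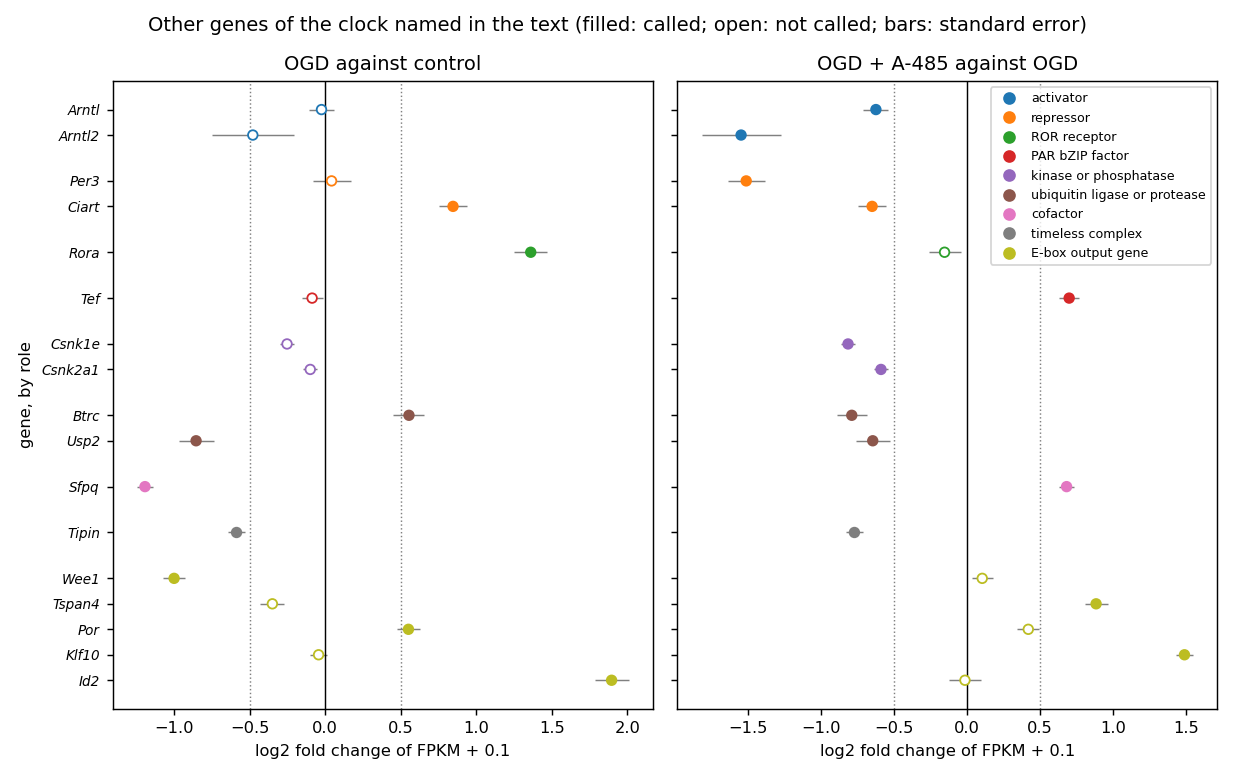
Log2 fold change of FPKM + 0.1 (horizontal axes) for 17 of the 41 other clock genes tested, all named in the text. Rows are ordered and coloured by role, and bars are limma standard errors. The left panel shows OGD against control and the right panel OGD + A-485 against OGD. Id2 at 1.90 and Rora at 1.36 lie farthest right on the left panel. On the right panel Klf10 at 1.49 lies farthest right, and Arntl2 at -1.55 and Per3 at -1.51 lie farthest left. Arntl2 had 4 to 5 reads in each OGD + A-485 library.

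Other listed genes moved with the same groups. Of 7 glucocorticoid-responsive genes, a list that includes Per1, 5 were called higher in OGD against control (11.2% of all genes were). In OGD + A-485 against OGD, 4 of them were called lower (13.4% of all genes were) and 1 higher (12.2%), and against control 2 were called higher (17%) and 1 lower (16.6%). Of the 10 hypoxia genes, 1 was called lower in OGD + A-485 against OGD (13.4% of all genes were; median of the 10 -0.21). Against control, 9 were called higher and 1 lower (17% and 16.6% of all genes were; median 1.196). The 12 microglial and macrophage markers summed to 470.5 to 488.5 FPKM in control, 602.7 to 621.6 under OGD and 1080 to 1109 under OGD + A-485, so that expression of these markers moved in the same comparisons, and their part in the results was not tested. Markers of astrocytes summed to at most 0.155 FPKM, of neurons to 0.676, of endothelial cells to 1.53 and of oligodendrocytes to 2.36 in any library.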

How the data were processed

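The authors counted clean reads per gene with featureCounts 1.5.0 and deposited FPKM. GRCm38 (mm10) is the build in the submitters' processing notes, while the aligner, the annotation release and the strand setting are not given in the sources used here. Coordinates of all 10 genes matched GENCODE M21. FPKM multiplied by gene length and a divisor per library gave whole reads for 100% of values (tolerance 0.01 reads). After a filter at a mean of 0.2 FPKM, log2(FPKM + 0.1) of 16123 genes entered a limma 3.58.1 fit (R 4.3.3, trended prior variance, all 9 libraries, group means) with Benjamini-Hochberg adjustment over all genes tested, and the fit was tested on simulated data. Other steps ran in Python 3.11.15 (scipy 1.17.1, numpy 2.4.6, pandas 2.3.3, figures with matplotlib 3.10.9).

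The 10 genes and all lists were chosen with earlier results of these data known. Related clock genes were named if their mean was at least 1 FPKM and they were called in any comparison, up to 15 by the largest absolute log2 fold change. Of these, 2 are not reported here. Tried as alternatives were a pseudocount of 1 or 0.01, a filter at 1 FPKM or none, quantile normalization, scaling to library totals, fits of 2 groups, a replicate block, no trend, limma-voom on the recovered reads, adjusted p under 0.05 in place of p, subtraction of the median of 50 neighbouring genes, and each library left out. For the ratios, left-out libraries and a pseudocount of 0.1 were added after seeing the data. The labels give no batch.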

Additional observations from a re-analysis of the deposited data

How the results depend on the processing

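The numbers of the 10 genes called stayed within 1.5 times the reported count under the alternatives run: 6 to 7 in OGD against control, 2 to 4 in OGD + A-485 against OGD and 6 to 9 in OGD + A-485 against control, and for related clock genes 10 to 12, 14 to 18 and 18 to 22. With a minimum mean of 1 FPKM, Per2 was not tested. Among the 10 genes, subtracting the median of neighbouring genes turned the direction of 2 uncalled differences between OGD + A-485 and OGD. These became 0.0080 for Bhlhe40 and 0.0078 for Nr1d2. The subtraction also took Nr1d1 in OGD against control past the size threshold (-0.56).

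Calls near the thresholds moved. Nr1d1 in OGD + A-485 against control lost its call with a pseudocount of 1 (-0.46), with quantile normalization (-0.49) and without control replicate 1 (-0.48). Nfil3 in that comparison gained one with quantile normalization (-0.53), with library totals (-0.60) and without control replicate 1 (-0.51), OGD + A-485 replicate 1 (-0.52) or 3 (-0.51), and Clock with library totals (-0.50). Dbp in OGD + A-485 against OGD gained one with quantile normalization (0.68), limma-voom (0.64) and an adjusted p under 0.05 (0.60). Per2 in OGD + A-485 against control ranged from 0.84 (pseudocount of 1) to 2.48 (pseudocount of 0.01). With a pseudocount of 0.1 the log2 difference of the ratio of Per1 to Per2 was -2.41 from OGD and -2.18 from control. Scaling to library totals moved the median of all genes in OGD + A-485 against control from 0.02 to -0.09, and the share of called genes that were higher from 50.6% to 40.2%.

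Deviations of same-numbered libraries from their group means showed no pairing (mean correlation -0.0302 over 9 pairs, against 0.0151 over 18 pairs with different numbers). With the replicate number as a block, the counts of the 10 genes called were 6, 3 and 7 in the 3 comparisons, as without it, and no call of the 10 genes changed. Among the 10 genes, depth limits Per2 most, with 12 to 23 reads in each control library. Arntl2, outside the 10, had 4 to 5 reads in each OGD + A-485 library.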
